A study of Mus musculus with 3 samples.

Results

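Ly6d, Ly6c1, Ly6a and Ly6e encode small cell-surface antigens of the Ly6 family, and they are the 4 members described here, out of 32287 features counted in mouse esophageal PC cells. The members were listed by symbol and had been selected on their raw UMI counts in these same cells, so every value below describes this culture and supports no test. PC cells came from esophageal organoids of Trp53 floxed/floxed mice. Ad-Cre-EGFP, an adenovirus carrying Cre recombinase and a green marker, removed Trp53 in culture, and CRISPR/Cas9 then knocked out Cdkn2a. The cells also expressed Cas9 constitutively, received a barcode library with Lipofectamine 3000 and were passaged 3 times, and live RFP-positive cells were sorted, about 1000000 sorted and about 20000 recovered per the labels. Gene expression, barcode and scar libraries were made from this 1 culture, and the deposited matrix does not say which of the 3 supplied its reads, so it was treated as 1 pooled sample with no replicate. The labels give the tissue as Esophageal Cancer and the material as organoid. How many animals or clones stood behind the culture is not given in the sources used here. A Notch1 knockout line, PCN, was not analysed here.

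Ly6 proteins fold into a compact disulfide-bonded LU domain, and most are tied to the outer membrane by a glycosylphosphatidylinositol (GPI) anchor. LY6D is known as a surface antigen of stratified squamous keratinocytes and of early B-lineage progenitors. LY6A, better known as Sca-1, is a classical mouse marker of blood stem cells and of progenitors in several epithelia. LY6C1 carries the Ly-6C antigen of endothelial cells and of some blood cells, together with the product of its near copy Ly6c2. LY6E is a broadly expressed member induced by interferon and known for its effect on virus entry.

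The 4 genes lie on 1 stretch of chromosome 15 (GRCm38, GENCODE M21). Ly6d (ENSMUSG00000034634) spans chr15:74762056-74763620 on the minus strand. Ly6e (ENSMUSG00000022587) spans chr15:74955051-74959905 on the plus strand, Ly6a (ENSMUSG00000075602) chr15:74994877-74998031 on the minus strand, and Ly6c1 (ENSMUSG00000079018) chr15:75044018-75048830 on the minus strand. No annotated gene overlaps any of them. Ly6c2, the near copy of Ly6c1, lies beyond it at chr15:75108158-75111970.

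How well 3' reads can tell these genes apart matters for every statement on joint detection. The coding sequences of Ly6c1 and Ly6a were identical over 82.0% of aligned columns, and those of Ly6c1 and Ly6c2 over 97.7%. Every pair of members that includes Ly6d or Ly6e was identical over 50.1% to 53.5%. The last 90 coding bases before the stop codon show the likeness between Ly6a, Ly6c1 and Ly6c2, with capitals at bases that differ from Ly6a. All lie on the minus strand of GRCm38, at chr15:74995265-74995354, chr15:75045405-75045494 and chr15:75108546-75108635 in the order shown.
Ly6a: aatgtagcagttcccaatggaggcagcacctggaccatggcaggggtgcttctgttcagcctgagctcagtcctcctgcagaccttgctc
Ly6c1: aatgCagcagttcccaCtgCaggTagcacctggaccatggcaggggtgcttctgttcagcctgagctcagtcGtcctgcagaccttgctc
Ly6c2: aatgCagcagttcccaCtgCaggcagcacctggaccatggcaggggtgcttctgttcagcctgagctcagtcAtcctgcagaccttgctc
Ly6c1 differed from Ly6a at 5 of these 90 bases, and Ly6c2 at 4. Within the last 500 bases of each transcript, where 3' reads fall, no window of 50 bases was shared between Ly6a and Ly6c1. Of 451 such windows, Ly6c1 shared 90 with Ly6c2, Ly6a shared 20 with Ly6c2 or I830127L07Rik, and Ly6d and Ly6e shared none with any other gene. Ly6c2 itself had 2 UMIs in all kept cells, and no source used here says how reads that match both were counted. Only exact matches over a whole window of 50 bases counted as shared, so shorter identical runs were missed. Such a run of Ly6a and Ly6c1 lies between the capitals T and G of Ly6c1 above. How well reads tell Ly6a from Ly6c1 was not tested.

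The matrix held 18116 cell barcodes. Of these, 14925 had at least 500 genes, at least 1000 UMIs (unique molecular identifiers, each counting 1 captured RNA molecule) and at most 20% mitochondrial UMIs, with 2955 UMIs in the median cell. Levels are given as CPM, the UMIs of a gene divided by those of all genes and multiplied by 1000000, and shares of cells and joint detection were taken after each cell was thinned at random to 1500 UMIs, which 13281 cells allowed. Clustering without any Ly6 or other LU-domain gene gave 11 clusters, numbered by size. Cluster 4 was cycling-like, cluster 5 mesenchymal-like, cluster 9 simple-epithelial-like and cluster 10 interferon-like by their markers, and the others stay unnamed and are called by number and leading genes. Intervals are exact 95% intervals that cover counting error only.

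Ly6d was held at a high level by a minority of cells. It had 43506 UMIs, a level of 957 CPM (948 to 966). In the thinned data 32.5% of cells (31.7 to 33.3) held a Ly6d UMI, and the median cell had 0. The 10% of cells with most Ly6d held 69.5% of its thinned UMIs, 4.24% of cells had at least 10, and the highest cell had 53. Its variance over thinned cells was 8.86 times its mean, where pure sampling of equal cells would give a ratio near 1.

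Ly6c1 was sparse. It had 4632 UMIs, 102 CPM (99.01 to 104.9), and a UMI in 10.4% of thinned cells (9.84 to 10.9). Only 2.51% of cells had at least 2 UMIs and 0.105% at least 5, with a highest value of 8 and a variance 1.64 times the mean. At this depth most cells with Ly6c1 are known from a single molecule.

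Ly6a was detected in most cells. It had 100744 UMIs, 2217 CPM (2203 to 2231), and a UMI in 80.5% of thinned cells (79.8 to 81.1), with a median of 3, a highest value of 28 and a variance 2.75 times the mean. Ly6e was the most even of the members. It had 31999 UMIs, 704 CPM (696 to 712), and a UMI in 60.9% of thinned cells (60.1 to 61.7), with a highest value of 8 and a variance 1.22 times the mean.

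**Figure D1:**
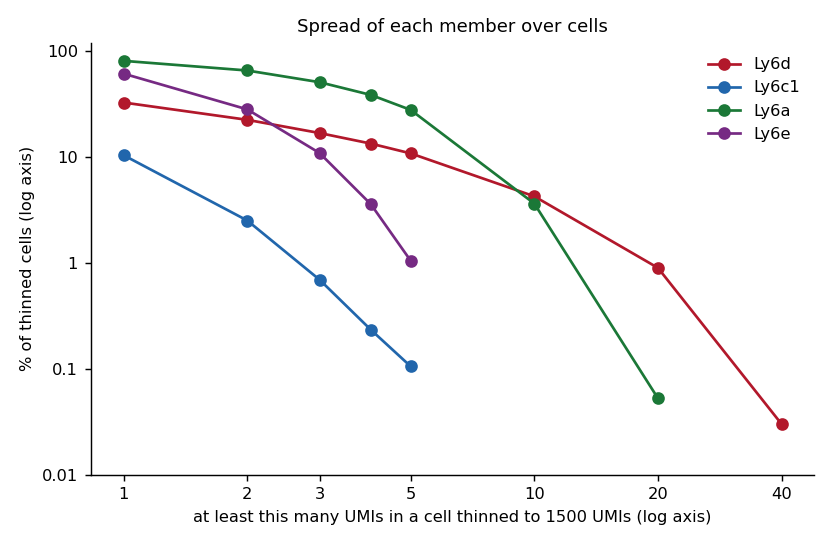
Share of thinned cells (vertical, percent, log axis) with at least the number of UMIs shown (horizontal, log axis), 1 line per member over 13281 cells thinned to 1500 UMIs. Ly6d starts below Ly6e and Ly6a, at 32.5% of cells, but reaches 20 or more UMIs in 0.896% of cells, where Ly6a does so in 0.0527% and Ly6c1 and Ly6e reach no more than 8.

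By cluster, Ly6d centred on cluster 6, whose leading genes were Ltf, encoding the iron-binding secretory protein lactoferrin, Gabrp and Lcn2, encoding lipocalin-2. This cluster of 1292 cells had 4525 CPM of Ly6d (4460 to 4590) and held 42.5% of all its UMIs. A Ly6d UMI was in 78.8% of its thinned cells (76.4 to 81.1), with a median of 5. Cluster 11, 63 cells led by the hypoxia-responsive genes Egln3, Ero1l and Ndrg1, followed at 2035 CPM (1793 to 2301), 2.22-fold below cluster 6. Clusters 7, 10 and 3 came next at 1033, 968 and 918 CPM, with intervals that overlapped from each to the next, and clusters 2, 4 and 1 at 806, 609 and 490 CPM.

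Little Ly6d was counted in 3 clusters. The mesenchymal-like cluster 5, led by Grem1, Ccn5 and Cacna1c, with Vim among its 10 leading genes, had 71.5 CPM (65.3 to 78.2), 63.3-fold below cluster 6, and cluster 8 had 78.3 CPM (60.6 to 99.7). The simple-epithelial-like cluster 9, led by Krt7, had 5 UMIs in 118 cells, 11.5 CPM (3.73 to 26.8), 394-fold below cluster 6. Only 1 of its 117 thinned cells had a Ly6d UMI, 0.855% (0.0216 to 4.67), at a median depth of 3494 UMIs against 3065 in cluster 6. The 3.37% of mesenchymal-like cells with a UMI (2.61 to 4.28, median depth 3344) lies within that interval, but the levels of the clusters in CPM were apart. Single mesenchymal-like cells had up to 12 thinned Ly6d UMIs, and the variance there was 5.10 times the mean.

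Ly6c1 had its highest level in the cluster where Ly6d was lowest. Cluster 9 had 463 Ly6c1 UMIs in 118 cells, 1063 CPM (968 to 1164), and a UMI in 64.1% of thinned cells (54.7 to 72.8). The cluster made up 0.791% of kept cells and held 10.0% of all Ly6c1 UMIs. The next cluster was the interferon-like cluster 10 at 184 CPM (141 to 237), 5.77-fold lower. Clusters 2, 4, 7, 3 and 6 formed a row from 128 down to 98.2 CPM in which each interval overlapped the next. The mesenchymal-like cluster had 65.0 CPM (59.1 to 71.4), cluster 1 had 37.0 CPM (32.7 to 41.7) and cluster 8 had 9 UMIs, 10.7 CPM (4.88 to 20.3). Cluster 11 had 0 Ly6c1 UMIs in 63 cells, although its Ly6d level was the second highest. None of its 46 thinned cells had a Ly6c1 UMI, with an exact interval of 0 to 7.71% that limits cells with a UMI and not cells that express the gene. Cluster 9 stood 44.4-fold above the level that 3 UMIs would give in cluster 11, where the exact interval of 0 UMIs reached 29.4 CPM.

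Ly6a was high over several clusters and low in 3. Cluster 2, led by the proliferin genes Prl2c3 and Prl2c2, had 3407 CPM (3367 to 3447). Cluster 9 had 3285 CPM (3117 to 3459), the interferon-like cluster 10 had 3284 CPM (3090 to 3487) and cluster 6 had 3140 CPM (3086 to 3195), with intervals that overlapped from each to the next. Clusters 3, 4, 7 and 1 followed at 2686, 2226, 1717 and 1578 CPM. The levels in cluster 11, 726 CPM (585 to 892), and in the mesenchymal-like cluster, 650 CPM (631 to 670), overlapped. Cluster 8 was lowest at 144 CPM (119 to 172), 23.7-fold below cluster 2. In the mesenchymal-like cluster 42.7% of thinned cells had a Ly6a UMI, against 96.5% in cluster 2.

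Ly6e followed a similar order over a narrower range. Cluster 9 had 1038 CPM (944 to 1138), cluster 6 had 970.5 CPM (941 to 1001), cluster 2 had 907 CPM (886 to 928) and the interferon-like cluster 10 had 885 CPM (785 to 993). The mesenchymal-like cluster had 486 CPM (470 to 503), 2.13-fold below cluster 9, and cluster 8 had 201 CPM (171 to 233), 5.17-fold below it. Ly6a and Ly6e are known interferon targets. In cluster 10, where 29 of 32 listed interferon genes were raised at least 1.5-fold, both stood above their levels over all kept cells, and their intervals overlapped those of cluster 2. Cluster 8 was low for all members. Its median cell had 1185 UMIs, of which 10.4% were mitochondrial, and it was led by Zfpm2, Aff2 and Immp2l. The part of this shallow depth in the low values was not tested.

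**Figure D2:**
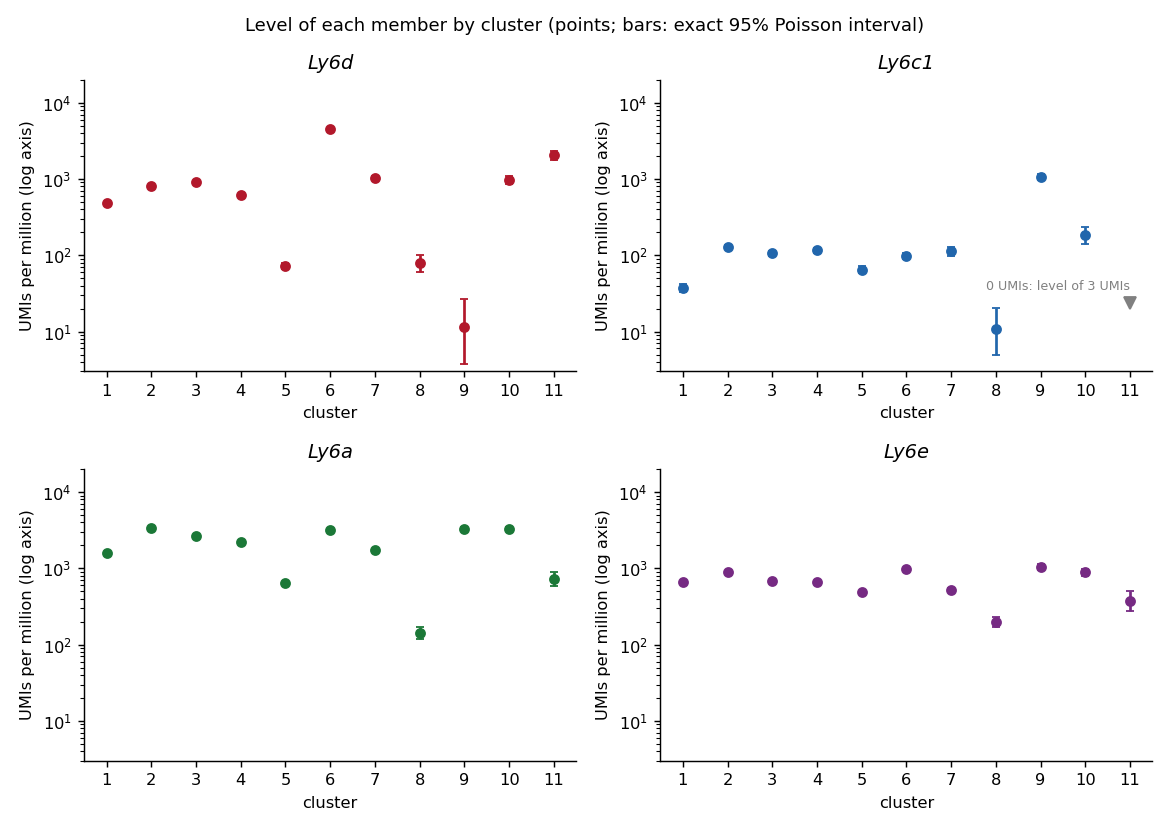
Level of each member (vertical, CPM, log axis) in each of the 11 clusters (horizontal), 1 panel per gene, as points with exact 95% Poisson intervals; the triangle marks 0 UMIs, drawn at the level of 3 UMIs. Ly6d spans 11.5 CPM (cluster 9) to 4525 CPM (cluster 6), Ly6c1 peaks at 1063 CPM in cluster 9, and Ly6e stays between 201 and 1038 CPM.

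The members did not exclude each other over the culture as a whole. Of the 13281 thinned cells, 8.48% had a UMI of none of the 4 genes, 26.1% of 1, 40.7% of 2, 22.2% of 3 and 2.54%, 337 cells, of all 4. The most frequent combination was Ly6a with Ly6e alone, in 28.1% of cells, followed by Ly6a alone in 17.2% and Ly6d, Ly6a and Ly6e together in 17.0%. Ly6c1 occurred with Ly6d and neither of the others in 2 cells.

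For each pair, the share of cells with a UMI of both genes was divided by the product of the 2 single shares, so a log2 value of 0 means that the genes met as often as their shares alone would give. The interval is that of the joint share. All 6 pairs lay above 0. Ly6c1 and Ly6a had 0.23 (0.16 to 0.31), with 1299 cells observed and 1106 from the product. Ly6d and Ly6c1 had 0.16 (0.03 to 0.28), with 500 cells and 447. Ly6d and Ly6a had 0.16 (0.12 to 0.19), Ly6c1 and Ly6e 0.12 (0.03 to 0.21), Ly6d and Ly6e 0.11 (0.06 to 0.16) and Ly6a and Ly6e 0.07 (0.05 to 0.10). The larger single share of a pair sets a ceiling for its value. Pairs with Ly6a, detected in 80.5% of cells, had the least room. Sizes are therefore not comparable between pairs, nor with those of the high cells below.

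The excess was smaller within clusters. When the product was formed within each cluster and summed, Ly6c1 and Ly6a kept 0.15 (0.08 to 0.23) and Ly6a and Ly6e 0.04 (0.01 to 0.06). The other 4 pairs fell to between 0.03 and 0.10, with intervals that reached below 0.

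A stricter view took only high cells, those at or above the smallest whole number of thinned UMIs that at most 10% of cells reach. This number was 6 for Ly6d (1151 cells), 2 for Ly6c1 (333 cells), 8 for Ly6a (1172 cells) and 4 for Ly6e (474 cells). Just at the limit stood 202, 241, 409 and 335 cells, and 1 UMI below it 280, 1042, 567 and 969. Ly6c1-high and Ly6a-high cells coincided in 97 cells against 29.4 from the product, a log2 value of 1.72 (1.42 to 2.01), and of 1.31 (1.01 to 1.60) within clusters. These 97 cells were 29.1% of the Ly6c1-high and 8.28% of the Ly6a-high cells. Ly6a-high and Ly6e-high cells coincided in 112 cells against 41.8, a value of 1.42 (1.14 to 1.69), and 0.96 (0.68 to 1.22) within clusters.

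The pairs with Ly6d, and Ly6c1 with Ly6e, had intervals within clusters that reached over 0 on both sides. Ly6d-high and Ly6a-high cells coincided in 160 cells against 102, a value of 0.66 (0.42 to 0.88), but within clusters the value was -0.01 (-0.24 to 0.21). Ly6d-high and Ly6c1-high cells coincided in 25 cells against 28.9, a value of -0.21 (-0.83 to 0.35), the only pair whose direction over all cells turned between any UMI and high cells. The interval reaches over 0 on both sides, so neither an excess nor a lack of such cells was detectable at this depth. Ly6d-high and Ly6e-high cells had 0.79 (0.43 to 1.12), and 0.28 (-0.08 to 0.61) within clusters. Ly6c1-high and Ly6e-high cells coincided in 15 cells against 11.9, a value of 0.34 (-0.50 to 1.06), and -0.13 (-0.97 to 0.59) within clusters.

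**Figure D3:**
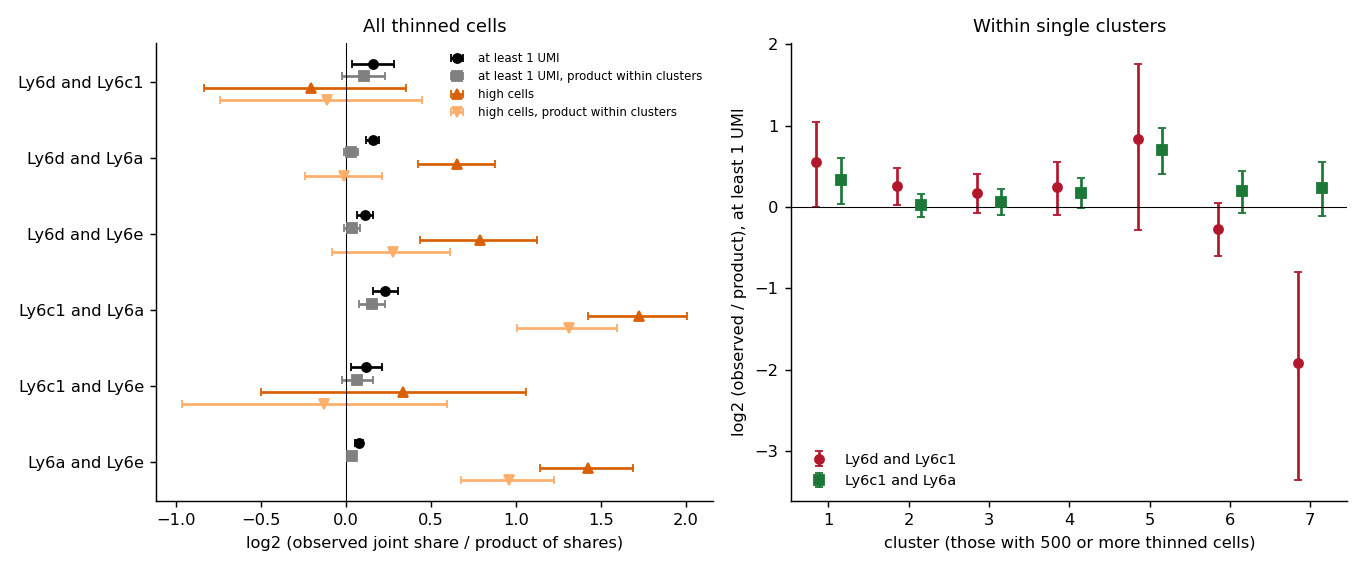
Left, log2 of observed over product share (horizontal) for the 6 pairs, for cells with at least 1 UMI and for high cells, with the product over all thinned cells or within clusters; right, the same for at least 1 UMI inside each of the 7 clusters with at least 500 thinned cells. Bars are exact 95% binomial intervals of the joint share. High cells of Ly6c1 and Ly6a stand at 1.72, and Ly6d with Ly6c1 in cluster 7 at -1.91.

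Inside single clusters the pair of Ly6d and Ly6c1 took both signs. In clusters 1 to 5 it lay between 0.17 and 0.84, with an interval above 0 in clusters 1 and 2. In cluster 6 it was -0.27 (-0.60 to 0.05), with a Ly6c1 UMI in 7.86% of cells with Ly6d and 15.4% of cells without. In cluster 7, led by Sncg, Fst and Krt7, it was -1.91 (-3.35 to -0.80). There, 6 cells had both genes against 22.6 from the product, and Ly6c1 was found in 3% of cells with Ly6d and 14.99% of cells without.

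Finer clustering split cluster 7 along the same line, although no Ly6 gene was among its features. At a resolution of 1.0 one part of 428 cells had 1734 CPM of Ly6d and 45.1 CPM of Ly6c1, and another of 275 cells had 79.6 CPM of Ly6d and 207 CPM of Ly6c1. A Ly6d UMI was in 48% of thinned cells of the first part and 6.82% of the second, and a Ly6c1 UMI in 5.33% and 19.7%. Ly6a was also lower in the first part, at 1343 against 2243 CPM. With the product taken within these parts the pair stood at -1.13 (-2.57 to -0.02), from the same 6 cells, so the value lay closer to 0 within the parts than over the cluster. The 428 cells belong to a finer cluster of 596 cells that also holds 118 cells of cluster 6, so the parts described in clusters 6 and 7 are not separate groups. These 118 cells stood apart in cluster 6, with 9459 CPM of Ly6d, 12.4 CPM of Ly6c1 from 4 UMIs and 1205 CPM of Ly6a, against 4227, 105 and 3252 CPM in the 1122 cells of the larger part. The finer parts of both clusters were described after their values were seen.

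Along the level of Ly6a, Ly6c1 increased at every step. Thinned cells with 0 Ly6a UMIs had a mean of 0.0312 Ly6c1 UMIs (0.0248 to 0.0388). Those with 1 to 2 had 0.0877, those with 3 to 4 had 0.156, those with 5 to 9 had 0.226 and the 481 cells with 10 to 28 had 0.478 (0.418 to 0.544). The share of cells with a Ly6c1 UMI went from 2.93% to 28.9% over the same steps. In each of clusters 1 to 7 the mean was also higher in cells with 5 to 9 Ly6a UMIs than in cells with none, for example 0.189 (0.147 to 0.239) against 0 UMIs in 155 cells in cluster 6. Read the other way, cells with 0, 1, 2 and at least 3 Ly6c1 UMIs had means of 2.999, 4.64, 5.68 and 6.73 Ly6a UMIs.

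The ratio of the 2 genes was not fixed, however. Over all kept cells 0.0460 Ly6c1 UMIs were counted per Ly6a UMI. The ratio was 0.0234 (0.0207 to 0.0264) in cluster 1, 0.0377 in cluster 2, 0.09998 (0.0909 to 0.110) in the mesenchymal-like cluster and 0.324 (0.295 to 0.354) in cluster 9. The Ly6a intervals of clusters 9 and 2 overlapped, while their ratios of Ly6c1 to Ly6a did not.

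Along the level of Ly6d, Ly6a showed a step and then a plateau over all thinned cells. The mean was 2.82 Ly6a UMIs (2.78 to 2.85) in cells with 0 Ly6d UMIs and 3.97 (3.86 to 4.08) in cells with 1, and it was 4.15 (3.79 to 4.53) in the 119 cells with 20 to 53. In clusters 1 to 5 more cells with Ly6d than without had a Ly6a UMI. The shares were 96.9% against 96.2% in cluster 2 and 81.5% against 41.4% in the mesenchymal-like cluster. In clusters 6 and 7 fewer did, 87.1% against 88.5% and 76.0% against 82.1%. The part of cluster make-up in the step was not tested. The share of cells with a Ly6c1 UMI was 12.04%, 13.0% and 11.9% (9.79 to 14.2 for the last) in cells with 1, 2 to 4 and 5 to 9 Ly6d UMIs. It was 6.76% (4.60 to 9.51) in the 444 cells with 10 to 19 and 4.202% (1.38 to 9.53) in the 119 cells with 20 to 53. Both of these intervals lay below that of cells with 5 to 9 Ly6d UMIs, and the difference was not tested.

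**Figure D4:**
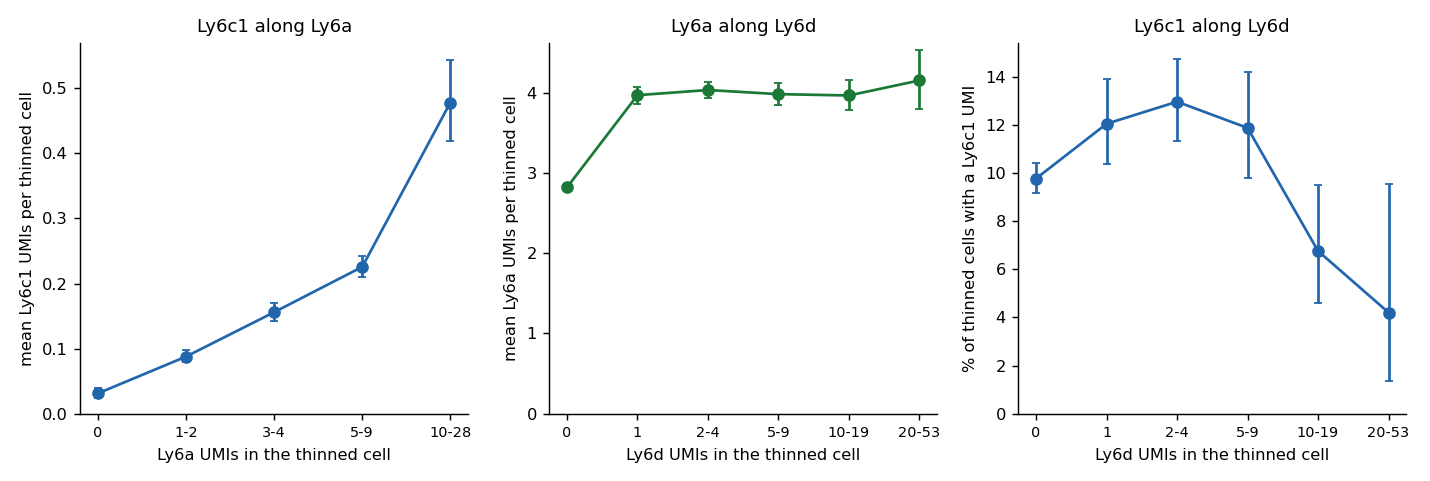
Mean Ly6c1 UMIs by Ly6a UMIs (left), mean Ly6a UMIs by Ly6d UMIs (middle) and percent of cells with a Ly6c1 UMI by Ly6d UMIs (right), all in cells thinned to 1500 UMIs; bars are exact 95% Poisson (left, middle) or binomial (right) intervals. Ly6c1 climbs from 0.0312 to 0.478 along Ly6a, Ly6a stays near 4 once Ly6d is present, and the Ly6c1 share is 4.202% at 20 or more Ly6d UMIs.

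Other genes were compared between the high cells of each member and all other thinned cells, with the members left out of the counts. A gene counted as tested with at least 10 CPM in the higher set and as past the limit at a ratio of 2 or more, with no test behind it. A gene at that level in the high cells alone could only count as higher, and in the other cells alone only as lower. Counts of listed genes below are therefore a description and not support. For Ly6d, 208 of 8741 genes (2.38%) were higher in the high cells and 353 (4.04%) lower. High and other cells had median depths of 2964 and 3138 UMIs for Ly6d, 3508 and 3106 for Ly6c1, 3622.5 and 3068 for Ly6a, and 3385.5 and 3109 for Ly6e, and the part of depth in the ratios was not tested.

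Genes of squamous differentiation were among those higher in Ly6d-high cells. Of 36 listed genes 20 were tested, and of these 10 were higher and 0 lower, with a median ratio of 1.91 against 0.957 over all tested genes. Krt6b, a keratin of activated and suprabasal keratinocytes, had 83 UMIs in 1151 high cells and 11 in 12130 others, 23.3 against 0.277 CPM, a ratio of 84.1. Krt13, the keratin of suprabasal esophageal epithelium, had 54.8 against 1.87 CPM, a ratio of 29.4. The cornified envelope gene Sprr2d had 171 against 22.5 CPM, a ratio of 7.59. Krt6b, Krt13, Sprr2a2, Grhl3 and Sbsn reached the 10 CPM needed for testing in the high cells alone, so they could only count as higher, and the count and median of the tested genes are a description and not support.

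Other epithelial lists held fewer such genes in the same comparison. The basal keratin genes Krt15 and Krt5 were 4.59-fold and 2.11-fold higher, the 2 that were higher out of 14 tested basal genes. Of 11 simple epithelial genes, Krt19, Elf3 and Cldn3 were higher, by 4.69-fold, 2.49-fold and 2.21-fold. Of 15 genes tied to progenitors and regeneration, the aldehyde dehydrogenase gene Aldh1a1 was 9.43-fold higher, the alarmin gene Il33 8.64-fold and Aldh3a1 6.26-fold among 4 that were higher, and the matrix protein genes Spp1 and Ccn2 were 4.95-fold and 2.79-fold lower. Without the mesenchymal-like cluster Spp1 and Ccn2 no longer passed, at ratios of 0.77 and 0.81, nor did Krt5 and Cldn3, at 1.79 and 1.84. All 9 tested mesenchymal genes were lower, Vim by 30.3-fold, Col5a1 by 21.7-fold and Col1a1 by 16.5-fold. Those that reached 10 CPM in the other cells alone could only count as lower. The mesenchymal-like cluster held 9 of the 1151 high cells. Without that cluster 192 of 8639 genes (2.22%) were higher and 204 (2.36%) lower, and the 3 mesenchymal genes still tested were lower as well. The squamous count was then 8 of 20 higher and 0 lower.

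The genes of highest ratio also included S100a9, encoding a calcium-binding protein of neutrophils and stressed keratinocytes, at 47.1-fold, Cybb at 21.6-fold and the potassium channel subunit gene Kcne3 at 19.9-fold. The lowest were Myl9, Bicc1, Tagln, Ccn5 and Brinp3, which reached 10 CPM in the other cells alone and could only count as lower. Tagln, a smooth muscle actin-binding protein gene, was 37.1-fold lower, and Myl9, Bicc1 and Ccn5 had 3 UMIs each in the high cells against 1228 to 1317 in the others. Of the immune list S100a9 and Cd14 were tested and both passed, Cd14 at 2.22-fold. S100a9, at 32.0 against 0.681 CPM, reached the level for testing in the high cells alone and could only count as higher. The same holds for Cybb and Kcne3. The defining immune genes Ptprc, Cd3e, Lyz2 and Adgre1 had 0 UMIs in the high cells, and 6 of 12 listed immune genes were at 0. In all kept cells Ptprc, Cd3e and Lyz2 had 1 UMI each and Adgre1 had 0, so their absence from the high cells says little. S100a8, Cd74 and Itgam stood above their levels over all kept cells and Csf1r below, each on 9 UMIs or fewer. The summed list was 126.5 CPM in Ly6d-high cells against 49.5 CPM over all kept cells, mostly from Cd14 and S100a9. The mitosis genes Mki67 and Top2a were 2.43-fold and 2.28-fold lower out of 12 tested cycling genes, with none higher. Of 23 interferon genes none passed the limit in either direction, but 2 of 23 were higher without the mesenchymal-like cluster.

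Cluster 6 supplied 577 of the 1151 Ly6d-high cells, so the comparison was repeated without it and within it. Without cluster 6, 116 of 8728 genes (1.33%) were higher and 257 (2.94%) lower. Of 18 tested squamous differentiation genes 6 were higher and 0 lower, with Krt13 at 15.2-fold from 20 and 28 UMIs. Of the 6, Krt13, Sprr2d and Grhl3 reached 10 CPM in the high cells alone, so they could only count as higher. Krt6b, Krt15, S100a9 and Pinlyp did not reach the level needed for testing there. Mki67 and Top2a were 1.36-fold and 1.30-fold lower and no longer passed, and no cycling gene did. Elf3 at 1.44 and Cd14 at 1.61 no longer passed either. Within cluster 6, 112 of 8540 genes (1.31%) were higher and 136 (1.59%) lower. Of 23 squamous genes 6 were higher there, Krt6b by 23.6-fold, Krt16 by 5.27-fold and Krt13 by 4.61-fold, and Sprr2h was 2.78-fold lower. Krt6b, with 78 and 4 UMIs, 43.5 against 1.84 CPM, reached 10 CPM in the high cells alone and could only count as higher. The count within cluster 6 is a description and not support.

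Most genes past the limit in the Ly6a comparison were lower in the high cells. Of 8639 genes 34 (0.394%) were higher and 209 (2.42%) lower. All 9 tested mesenchymal genes were lower. Vim was 18.97-fold lower and Col5a1 had 1 UMI in the high cells against 973 in the others. Vim, Col5a1, Col1a1, Col3a1, Zeb1 and Zeb2 reached 10 CPM in the other cells alone, so they could only count as lower. The lowest genes of all also included Grem1, which encodes an inhibitor of bone morphogenetic proteins, at 45.3-fold, Cxcl12 at 28.0-fold, Ccn5 at 27.6-fold and Adamts12 with 3 UMIs against 599. Each of them also reached 10 CPM in the other cells alone. When the mesenchymal-like cluster was left out, 23 of 8530 genes (0.27%) were higher and 62 (0.727%) lower, and 0 of 3 mesenchymal genes passed. Over all thinned cells the genes of highest ratio were Slurp1 at 4.65-fold, Sprr2d at 3.86-fold, Sprr2e at 3.84-fold, the protease gene Prss27 at 3.38-fold and Psca at 3.24-fold. All but Sprr2d reached 10 CPM in the high cells alone, so they could only count as higher. Of 17 squamous genes only Sprr2d and Sprr2h were past the limit, and Sprr2h reached 10 CPM in the high cells alone. Among progenitor genes Il33 and Aldh3a1 were 2.02-fold and 2.002-fold higher of 16 tested, the second only just past the limit, and Ccn2 was 2.63-fold lower. None of the 3 passed without the mesenchymal-like cluster, at ratios of 1.76, 1.72 and 0.88. Spp1 turned there, from 489 against 951 CPM over all thinned cells to 473 against 188 CPM, 2.51-fold higher. Of 21 interferon genes none passed, with a median ratio of 1.01.

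For Ly6c1, of 8771 genes 64 (0.73%) were higher and 109 (1.24%) lower, several of them on few UMIs. The proliferin gene Prl2c5 was 4.92-fold higher, from 193 UMIs and 155 CPM, and the epithelial cytokine gene Tslp 3.57-fold, from 306 UMIs and 245 CPM. Enho, BC037156 and Peg3 were also among the highest, from 14 to 27 UMIs. These reached 10 CPM in the high cells alone, so they could only count as higher. Of 16 squamous genes none was higher and Krt16 was 2.18-fold lower. The simple epithelial keratin gene Krt7 was 2.17-fold higher of 10 genes on that list. Rsad2, Psmb8 and Ifit3 were higher of 24 interferon genes, by 2.33-fold to 2.02-fold, but 0 of 21 passed without the mesenchymal-like cluster. In that comparison 76 of 8690 genes (0.875%) were higher and 98 (1.13%) lower. The genes of lowest ratio, Cpq, Adam28, Zw10, 9530026P05Rik and Cep135, rested on 2 to 4 UMIs in the high cells. They reached 10 CPM in the other cells alone, so they could only count as lower. Cluster 9 held 42 of the 333 high cells. Without it, 56 of 8812 genes (0.635%) were higher and 135 (1.53%) lower, Prl2c5 stood at 5.58-fold, and Krt7 turned direction, with 65.95 against 81.6 CPM, a ratio of 0.81. Krt16 then no longer passed, at 0.52.

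Because Ly6c1 is known from endothelial cells, their markers were counted in the high cells. Egfl7, from 19 UMIs, was the only endothelial-list gene that reached 10 CPM, 15.2 against 6.17 CPM, a ratio of 2.47. As it did so in the high cells alone, Egfl7 could only count as higher. Pecam1 had 4 UMIs there, 3.18 CPM against 1.23 CPM over all kept cells. Cdh5, Kdr, Tek, Emcn, Tie1 and Cldn5 had 0 UMIs in the Ly6c1-high cells. In all kept cells Cdh5, Emcn and Cldn5 had 0 UMIs, and Kdr, Tek and Tie1 had 2, 7 and 4. Their absence from 333 high cells therefore says little. The summed endothelial list was 18.3 CPM in Ly6c1-high cells, 25.2 CPM in cluster 9 and 7.70 CPM over all kept cells.

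For Ly6e, of 8726 genes 28 (0.321%) were higher and 120 (1.38%) lower. The genes of highest ratio, Cybb, Gstt1, S100a9, Ifit1bl1 and Reep6, were 3.99-fold to 2.82-fold higher on 17 to 31 UMIs. All of them reached 10 CPM in the high cells alone, so they could only count as higher. Of 9 mesenchymal genes 6 were lower, Col5a1 by 5.53-fold and Vim by 3.16-fold. Of these, Col5a1, Col3a1 and Zeb1 reached 10 CPM in the other cells alone. Without the mesenchymal-like cluster 0 of 3 mesenchymal genes passed, and 28 of 8633 genes (0.324%) were higher and 78 (0.904%) lower. The lowest of all were Adamts12, Zc3h12b, Actg2, Brinp3 and Gpc6, on 2 to 11 UMIs in the high cells. They reached 10 CPM in the other cells alone, so they could only count as lower. Of 21 interferon genes none passed, and of 17 squamous genes Sprr2h alone did, at 2.08-fold from 18 UMIs, and at 1.93 without the mesenchymal-like cluster it did not. Over all thinned cells Sprr2h, at 10.8 against 5.20 CPM, reached the level for testing in the high cells alone.

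**Figure D5:**
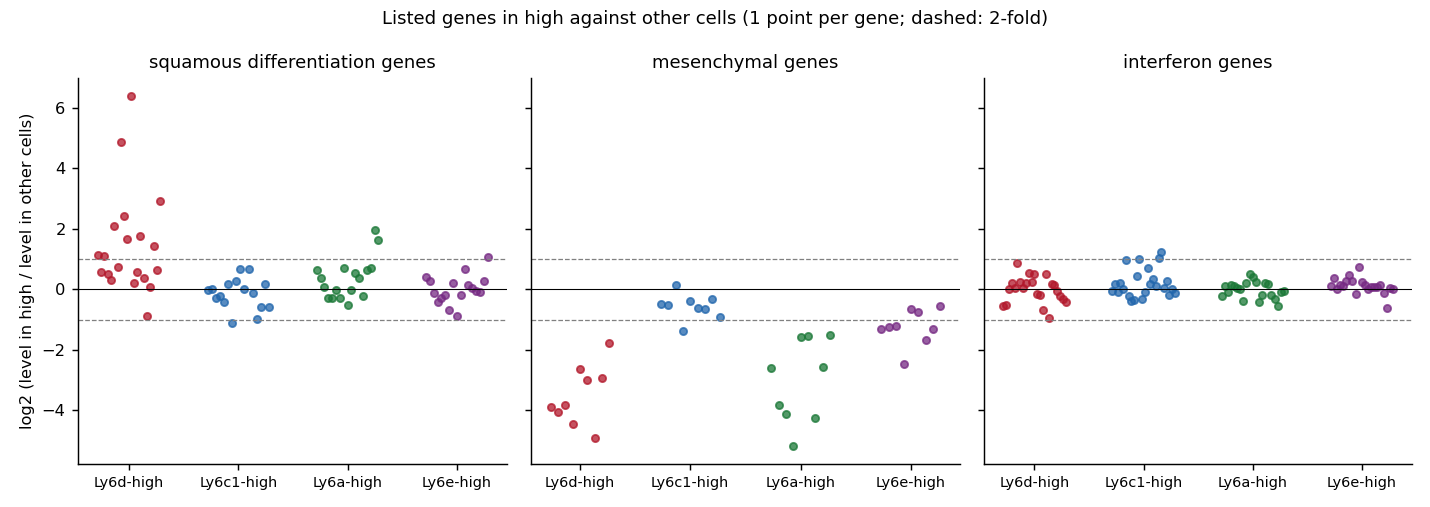
Log2 ratio of the level in high cells to that in other cells (vertical) for each tested gene of the squamous differentiation, mesenchymal and interferon lists, by the member that defined the high cells (horizontal); 1 point per gene, dashed lines at 2-fold. Squamous genes reach 84.1-fold in Ly6d-high cells, mesenchymal genes fall below the lower line for Ly6d and Ly6a, and interferon genes stay between the lines except for 3 in Ly6c1-high cells. Without the mesenchymal-like cluster, 0 of 3 mesenchymal genes pass for Ly6a and 0 of 21 interferon genes for Ly6c1.

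The gene most like each member was sought by Spearman correlation over the 13281 thinned cells among the 2618 genes whose mean thinned count reached 0.1. These values describe cells of 1 culture that share their library and depth. Ly6d came closest to Fxyd3 (0.38), an ion pump regulator of epithelia, Cbr2 (0.34), Gsto1 (0.33), Krt6a (0.29) and Krt5 (0.27), and was most opposed to the actin-binding and matrix genes Tpm1 (-0.31) and Fn1 (-0.30). Ly6a came closest to the chemokine gene Ppbp (0.35), S100a6 (0.34), Rps4x (0.34), the interferon-inducible gene Ifitm3 (0.33) and Rpl13 (0.30), and was most opposed to Vim (-0.32) and Fstl1 (-0.30). For Ly6e the highest were Clu (0.15), S100a6 (0.14), Ppbp (0.14), Anxa1 (0.14) and Ifitm3 (0.13), and the lowest Timp3 and Vim (both -0.11). Ly6c1 reached 0.11 with Rpl13 and no more than 0.10 with Rpl5, Rps10, Prdx1 and Rps4x, with Malat1 (-0.11) and Thbs1 (-0.07) at the other end, and no pattern was read from values this weak in a gene this sparse. Among the members themselves the values were 0.21 for Ly6a with Ly6e, 0.19 for Ly6a with Ly6c1 and with Ly6d, and 0.02 for Ly6d with Ly6c1.

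Taken over all kept cells, the rest of the locus was nearly silent. Of 22 listed Ly6-locus genes 21 were in the matrix. The 17 that are not members had 1370 UMIs together, against 180881 for the members, and 3 of them had 0. Lynx1, a modulator of nicotinic receptors, reached 13.4 CPM and Psca, a prostate and squamous surface antigen gene, 10.0 CPM. Ly6i, next to Ly6a, had 40 UMIs, Ly6m 56 and Ly6g 6.

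Psca and Slurp1, which lie on the far side of Ly6d from the other members, were also higher in Ly6d-high cells. Psca (chr15:74714839-74717069) had 360 of its 456 UMIs in cluster 6, 88.1 CPM (79.2 to 97.7), against 3.63 CPM or less in the other clusters with at least 500 cells. It was 14.3-fold higher in Ly6d-high cells, 5.31-fold without cluster 6 and 2.30-fold within it. Slurp1 (chr15:74724318-74728034), which encodes a secreted LU-domain protein of squamous epithelium, was 11.2-fold higher in Ly6d-high cells, 6.32-fold without cluster 6 and 8.22-fold within it. Slurp1 was also higher in Ly6a-high and Ly6c1-high cells, by 4.65-fold and 3.10-fold. Without cluster 6, Psca and Slurp1 rested on 18 and 22 UMIs and reached 10 CPM in the high cells alone. Slurp1 did so too within cluster 6, at 34.0 against 4.14 CPM, and for Ly6a, at 13.0 against 2.81 CPM. In these comparisons they could only count as higher, so the ratios are a description and not support. Lynx1, which lies between them and Ly6d, did not pass in any of the 4 comparisons.

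Elsewhere in the genome, 5 of 34 listed LU-domain genes reached 10 CPM. Plaur, the urokinase receptor gene, had 43.3 CPM and Cd59a, a complement inhibitor gene, 27.3 CPM, both highest in the mesenchymal-like cluster at 77.7 and 69.0 CPM. Lypd3, a keratinocyte surface protein gene, had 35.7 CPM and was highest in cluster 6 at 61.2 CPM. Lypd6b had 23.3 CPM and was highest in cluster 8 at 142 CPM. Pate14 had 22.4 CPM and was highest in cluster 9 at 220 CPM (178 to 269), the cluster of highest Ly6c1, and it was 2.36-fold higher in Ly6c1-high cells. Without cluster 9 that ratio was 1.07, from 24 UMIs and 21.98 against 20.5 CPM, so the call rested on cluster 9. In Ly6d-high cells Pinlyp was 5.87-fold higher and Cd59a 2.26-fold lower. Cd59a no longer passed without cluster 6 or without the mesenchymal-like cluster, at ratios of 0.61 and 0.60.

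Genes for GPI anchor synthesis were compared because most Ly6 proteins carry this anchor. Of 18 tested in Ly6d-high cells, 19 in Ly6c1-high, 17 in Ly6a-high and 18 in Ly6e-high cells, none passed the limit in either direction. Over all tested genes 2.38% were higher and 4.04% lower for Ly6d, and 0.73% and 1.24% for Ly6c1. The shares were 0.394% and 2.42% for Ly6a, and 0.321% and 1.38% for Ly6e. At such shares any list of this size would hold few or none, so these counts show nothing particular to this list. In parts of the culture 1 of 21 was higher in Ly6d-high cells within cluster 6, and 1 of 18 in Ly6e-high cells without the mesenchymal-like cluster. Over all thinned cells the median ratios of the list were 1.06, 0.947, 1.00 and 1.06.

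In the 3191 barcodes that missed the filters, Ly6d, Ly6a and Ly6e stood at 210, 223 and 227 CPM and Ly6c1 at 10.1 CPM. All 4 were lower there than in kept cells.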

How the data were processed

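The deposited matrix holds raw UMI counts and, per the file headers, came from CellRanger 8.0.1. The submitters' processing notes name the mm10 build and Scanpy 1.8.2, and no source used here names the annotation. The counts were not normalized, and the lowest barcode total was 500 UMIs. As its header names none of the 3 libraries, it stands as 1 sample with no test, no p-value and no standard error. The labels' figure of about 20000 recovered cells stands beside 18116 barcodes and 14925 kept cells.

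Scrublet in scanpy 1.11.5 called 1 of 14925 cells a doublet, too few for a working call, and nothing was removed. Leiden clustering (igraph 0.11.9, resolution 0.6) used 2000 variable genes, 30 principal components and 15 neighbours, with all listed Ly6 and other LU-domain genes held out. A name needed 3 markers raised at least 1.5-fold and 2 among the 10 leading genes. Thinning drew 1500 UMIs per cell without replacement and left out 1644 shallower cells. Ratios come from unthinned counts summed over cells, and genes under 3 UMIs in a set were taken at 3. The ratio and pair steps were tested on simulated counts. Sequences and positions came from GENCODE M21, which held 32158 of the feature IDs, using the APPRIS principal transcript of each gene.

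The genes named are the members, listed LU-domain genes of at least 10 CPM, the 5 highest and 2 lowest correlations per member, the 5 highest ratios in each direction, up to 3 genes per list past 2-fold in each direction, and the 3 leading genes of clusters. UMI counts of single immune and endothelial markers, and Slurp1, Ly6i, Ly6m and Ly6g were added after their values were seen. The members, lists and rules were chosen with earlier results of these data known. Alternatives covered the cell filter, depth and seed of thinning, doublet scores, the size of the high set, the minimum level and cell classes. Results for some listed genes are not reported here.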

Additional observations from a re-analysis of the deposited data

How the results depend on the processing

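With 1 culture, intervals cover counting error only, and small differences between clusters are not known to recur. Depth limits Ly6c1 most, since most of its cells rest on 1 UMI. No paired analysis was possible because the matrix is 1 pooled sample and no result comes from a test between groups. Of 42 alternatives for joint detection over all cells, 29 stayed within the counting interval, 12 moved outside it and 1 turned sign. With high cells in place of any UMI, Ly6d and Ly6c1 turned to -0.21, and Ly6d with Ly6a became 0.66, Ly6d with Ly6e 0.79, Ly6c1 with Ly6a 1.72, Ly6c1 with Ly6e 0.34 and Ly6a with Ly6e 1.42. With the product within clusters, Ly6d with Ly6a became 0.029, Ly6d with Ly6e 0.033, Ly6c1 with Ly6a 0.15 and Ly6a with Ly6e 0.038. Thinned to 1000 UMIs, Ly6d with Ly6a became 0.20, Ly6c1 with Ly6a 0.37 and Ly6a with Ly6e 0.13. Genes past 2-fold for Ly6d numbered 561, but 854 with the highest 5% of cells, 168 at a minimum of 50 CPM (85 higher, 83 lower), 373 without cluster 6 and 248 in cluster 6 only. For Ly6a, 243 became 441, 56 and, without the mesenchymal-like cluster, 85. At 50 CPM, 173 became 19 for Ly6c1 and 148 became 23 for Ly6e. Fewer genes are tested at 50 CPM by construction, and the cause of the other shifts was not tested. The views without or within clusters 6 and 9, and the 8 alternatives for Ly6d with Ly6c1 inside clusters 6 and 7, were chosen after seeing the data; the latter ranged from -1.86 to -1.13 in cluster 7 and from -0.28 to -0.04 in cluster 6. Of 12 alternatives for the level of a member 8 left its counting interval, and all deposited barcodes lowered all 4 levels. The ratio of the highest to the lowest cluster level stayed within 1.5 times except for Ly6c1 at resolution 0.3, where it was 129. All deposited barcodes gave the same thinned cells, since no barcode that missed the filters had 1500 UMIs.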
